A study of Mus musculus with 6 samples.

Results

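*Cftr*, *Aqp3*, *Aqp7*, *Trpc6*, *Kcnd2* and *Tmem38b* are 6 genes for channels that carry ions, water or small solutes across membranes, and they were followed in the mouse lung squamous cell carcinoma (LUSC) lines UN-SCC679 and UN-SCC680. They make up 6 of the 55359 rows of the count table. The genes were chosen by their function and their place in the genome, with their counts in both lines already known, so their values are given as a description and no p-value is given for them. Both lines were grown from lung tumors that N-nitroso-tris-chloroethylurea (NTCU), a carcinogen painted on the skin, had induced in A/J mice, and each line goes back to 1 tumor of 1 mouse and was passed through Rag2-/-IL2Rg-/- immunodeficient and then A/J mice. Polyadenylated RNA of the cultured cells was sequenced in 3 libraries per line, with 3568293 to 4363229 counts per library for UN-SCC679 and 4242716 to 4381885 for UN-SCC680. The labels do not say whether the 3 libraries came from separate cultures, so p-values measure only the spread between these libraries, which may be technical. With 1 tumor behind each line, a difference between the lines cannot be assigned to any one of their traits.

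Airway epithelium moves chloride, bicarbonate, sodium and water to keep its surface wet. CFTR is the cAMP-gated chloride and bicarbonate channel of the apical membrane whose loss causes cystic fibrosis, and in healthy airways rare ionocytes and part of the secretory cells carry much of it. Aquaporins let water follow, and the aquaglyceroporins AQP3 and AQP7 also pass glycerol. AQP3 is known from the basal cells of airways and skin. TRPC6 is a diacylglycerol-activated cation channel that admits calcium, KCND2 is a pore subunit of the fast-inactivating A-type potassium current of neurons, and TMEM38B (TRIC-B) is a potassium channel of the endoplasmic reticulum that balances charge when calcium leaves the store.

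Many rows of the table carry gene positions that are not those of GRCm38 (mm10), the build named for these reads, so what is counted at such rows may not belong to the named gene. Genes were therefore taken only from rows that began below 58.6 Mb on chromosome 4, 29.5 Mb on chromosome 6 or 9.0 Mb on chromosome 9, 1227 rows in all. The scaling, the fit and the shares over all rows still used the whole table, rows at other positions included. Of the 594 of them that a RefSeq gene of GRCm38.p6 with the same symbol could be set beside, 399 (67.2%) matched it at one end or both to within 10 bases. They are called genes at agreeing positions here. All 6 channel genes met this limit. *Cftr* (chromosome 6, 18170686 to 18322767, + strand) and *Aqp3* (chromosome 4, 41092722 to 41098183, − strand) agreed at both ends. *Aqp7* (chromosome 4, 41033074 to 41048139, − strand) agreed at its lower end, and *Tmem38b* (chromosome 4, 53826045 to 53862019, + strand), *Kcnd2* (chromosome 6, 21215502 to 21729804, + strand) and *Trpc6* (chromosome 9, 8544143 to 8680742, + strand) agreed at their upper ends. *Trpc6* lay nearest to a limit, 0.456 Mb inside it. The first ion transport gene beyond the limits was *Slc46a2* on chromosome 4, *Slc35b4* on chromosome 6 and *Panx1* on chromosome 9, with 1, 139 and 0 counts in all.

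The rows also had the exon pattern of the genes they name. In the older GENCODE M1 annotation, which lies on another build and was compared by exon spacing alone, all 7 *Aqp3* exons, 12 *Aqp7* exons, 14 *Tmem38b* exons and 6 *Kcnd2* exons recurred in the table at a single shift. For *Cftr* 36 of 37 did, and for *Trpc6* 11 of 13. Overlapping rows added little to a count. A minus-strand row, *Gm15592*, shared 129 exonic bases with *Cftr* and held 1 count over the 6 libraries, and a small RNA gene shared 119 bases with *Tmem38b* and held 0.

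*Cftr* was found in every UN-SCC679 library and in no UN-SCC680 library. It had 95, 135 and 103 counts in the libraries of UN-SCC679 and 0, 0 and 0 in those of UN-SCC680. In CPM, counts relative to the library size, with sizes adjusted by edgeR's TMM factors (normalized CPM), the UN-SCC679 level was 28.2 ± 2.58 (SD, n = 3). The groups did not overlap, which follows from the 0 counts in UN-SCC680 and is no test. Of all 8987 rows tested, 62.2% had lines that did not overlap. The coefficient of variation between the 3 UN-SCC679 libraries was 9.15%, close to the 9.49% that counting alone gives at this depth, so most of the spread was of the size of counting error. With UN-SCC680 set at a floor of 3 counts in a library, *Cftr* was at least 40.3-fold lower there. Such a bound allows for counting error in UN-SCC680 only and takes the UN-SCC679 mean as it stands. With the 3 counts taken over the 3 libraries together the bound was 123-fold. The fitted log2 fold change is not given as a size, because at 0 counts it moves with the method. In RNA of a whole culture, fewer cells that express a gene and less RNA per cell cannot be told apart.

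The start of *Cftr* is shown because this gene carried the difference between the lines, beside that of *Aqp3*, the other gene with a known place in the airway epithelium. The 250 bases before the RefSeq start (GRCm38.p6) are given 5′ to 3′ on the strand of the gene, with CG dinucleotides, the sites of DNA methylation, in capitals. *Cftr* lies at chr6:18170437-18170686 on the + strand and *Aqp3* at chr4:41098184-41098433 on the − strand.
Cftr: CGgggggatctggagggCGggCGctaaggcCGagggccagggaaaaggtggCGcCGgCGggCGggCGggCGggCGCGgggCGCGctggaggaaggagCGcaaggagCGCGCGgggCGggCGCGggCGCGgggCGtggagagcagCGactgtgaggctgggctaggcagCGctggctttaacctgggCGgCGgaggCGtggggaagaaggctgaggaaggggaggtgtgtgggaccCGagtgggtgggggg
Aqp3: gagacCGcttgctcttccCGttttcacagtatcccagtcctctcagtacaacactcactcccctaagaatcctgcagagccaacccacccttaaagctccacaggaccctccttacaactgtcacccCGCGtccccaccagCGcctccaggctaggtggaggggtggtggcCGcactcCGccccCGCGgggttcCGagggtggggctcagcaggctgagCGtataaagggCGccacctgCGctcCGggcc

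The *Cftr* stretch held 30 CG dinucleotides and 76.4% G and C, and 5.94% of the 32851 promoter stretches of the same length in the RefSeq table held as many CG. *Aqp3* had 14 CG, a number that 29.4% of stretches reached. *Kcnd2* had 22, *Trpc6* 12, and the pair of *Aqp7* starts 0 and 2, against a median of 6 over all stretches. The table used here has no entry for *Tmem38b*. A GC box (GGGCGG on either strand), present in 32.7% of stretches, was found for *Cftr*, *Aqp3* and *Kcnd2*. A TATA box (TATAAA on either strand), present in 12.4%, was found for *Aqp3* alone. CCAAT, present in 33.8%, was found before none of the 5 genes. DNA methylation was not measured in these libraries, and these letters are a description of the sequence only.

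*Tmem38b* was detected at a similar level in both lines and was the most abundant of the 6. It had 391, 451 and 379 counts in the UN-SCC679 libraries and 375, 377 and 417 in those of UN-SCC680. The normalized CPM was 104 ± 1.80 for UN-SCC679 against 91.2 ± 5.97 for UN-SCC680 (mean ± SD of 3 libraries). Every UN-SCC680 library lay below every UN-SCC679 library, although the nearest pair was 98.0 and 102 CPM. Of all 8987 rows that passed the filter on low counts, 62.2% had lines that did not overlap on this scale, so the absence of overlap is common in this table. The fitted log2 fold change of UN-SCC680 over UN-SCC679 was -0.19 with a standard error of 0.07, and it was -0.35 with the scaling set on the genes at agreeing positions alone, a scaling that moved the median of all rows by -0.16.

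**Figure D1:**
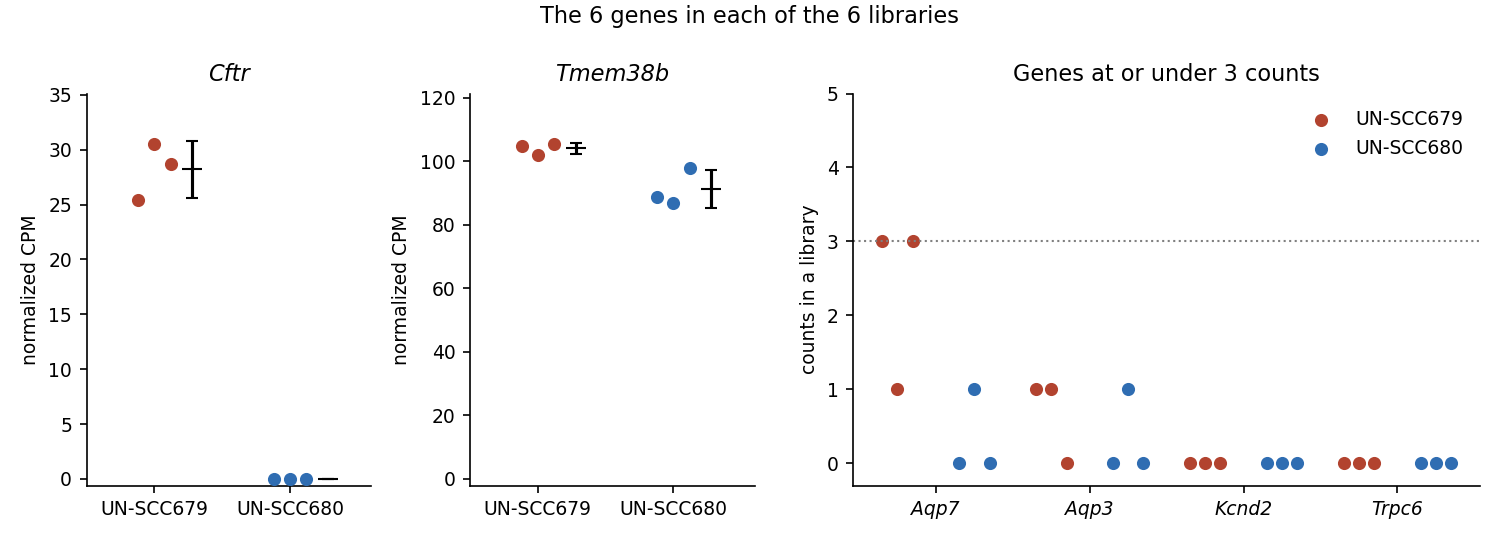
Normalized CPM of *Cftr* and *Tmem38b* (left and middle) and counts of *Aqp7*, *Aqp3*, *Kcnd2* and *Trpc6* (right) in each library of UN-SCC679 (red) and UN-SCC680 (blue), with the mean and SD of 3 libraries as black marks and 3 counts as a dotted line. *Cftr* is at 0 in the 3 UN-SCC680 libraries, *Tmem38b* lies between 86.8 and 105 CPM in all 6, and the other genes do not exceed 3 counts.

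The aquaporins were at the edge of detection in both lines. *Aqp7* had 3, 1 and 3 counts in the UN-SCC679 libraries and 0, 1 and 0 in those of UN-SCC680. *Aqp3* had 1, 1 and 0 counts in the former and 0, 1 and 0 in the latter. The lines overlapped for both genes, and since no library exceeded 3 counts no fold was computed. These counts were not detectable as a difference at this depth, where 3 counts are worth 0.688 to 0.841 CPM in a UN-SCC679 library and 0.685 to 0.707 CPM in a UN-SCC680 library. The genes on both sides of the aquaporin pair were well covered in the same libraries. *Nfx1*, which codes for a zinc-finger transcription factor and ends 7.08 kb below *Aqp7*, had 2831 to 4850 counts per library, and *Nol6*, which codes for a nucleolar protein and lies 16.2 kb above *Aqp3*, had 2210 to 3380.

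*Kcnd2* and *Trpc6* had 0 counts in all 6 libraries. By the same floor of 3 counts in a library, a count of 0 allows up to 0.688 to 0.841 CPM in the UN-SCC679 libraries and 0.685 to 0.707 CPM in those of UN-SCC680. Taken over the 3 libraries of a line together, it allows up to 0.258 and 0.232 CPM. Intervals and floors here cover counting error only. Expression of the neuronal potassium channel subunit and of the receptor-operated calcium channel was thus not detectable at this depth in either line.

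Per kilobase of exon, the only scale on which levels of different genes were compared, *Tmem38b* stood highest in both lines. *Cftr* came next in UN-SCC679 alone. In UN-SCC679 *Tmem38b* stood at 27.3 ± 0.472 normalized CPM per kilobase and *Cftr* at 3.63 ± 0.333 (SD, n = 3 each), and within single libraries *Tmem38b* was 6.81 to 8.39 times as high. *Aqp7* followed at 0.220 ± 0.121 and *Aqp3* at 0.0900 ± 0.0788, which do not differ beyond their spread, and *Kcnd2* and *Trpc6* were at 0. In UN-SCC680 *Tmem38b* stood at 24.0 ± 1.57, and *Aqp3* and *Aqp7* at 0.0420 ± 0.0727 and 0.0271 ± 0.0470. *Cftr*, *Kcnd2* and *Trpc6* were at 0 there, and these 5 genes could not be ordered. Neither detected gene was abundant. Among the 203 genes at agreeing positions with at least 30 counts over the 6 libraries, *Cftr* ranked 168 from the top in UN-SCC679 and *Tmem38b* 126, and *Tmem38b* ranked 132 in UN-SCC680. The medians of the 203 genes were 48.7 and 58.3 normalized CPM per kilobase in UN-SCC679 and UN-SCC680.

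**Figure D2:**
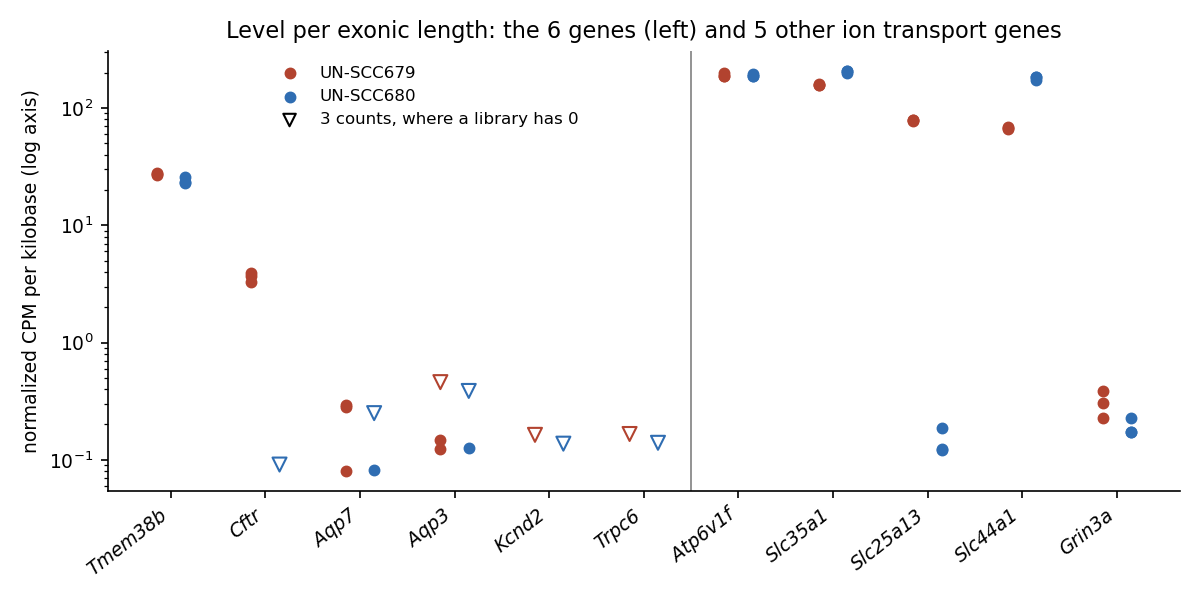
Normalized CPM per kilobase of exon on a log axis for the 6 channel genes (left of the line) and for 5 other ion transport genes, one dot per library of UN-SCC679 (red) and UN-SCC680 (blue), with an open triangle at what 3 counts are worth where a library had 0. *Tmem38b* lies near 27.3 and 24.0, *Cftr* near 3.63 in UN-SCC679 alone, and the aquaporins below 0.5.

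Of the 6 genes, 2 passed the filter on low counts (edgeR's filterByExpr), *Cftr* and *Tmem38b*. Rows were called at an adjusted p-value under 5e-05 from edgeR's quasi-likelihood test over all 8987 rows. The study states this threshold for another contrast, each line against normal lung basal cells. It used DESeq2, and its volcano plots also set a limit on the fold. *Cftr* was among the rows called as lower in UN-SCC680 and *Tmem38b* was not among those called. *Cftr*, at 0 throughout UN-SCC680, passed the filter through UN-SCC679 alone, so its call was fixed by how it entered and is no test of it. Over all rows 30.4% were called, 15.3% as higher and 15.2% as lower in UN-SCC680. Among the 195 tested genes at agreeing positions 64.1% were called, 40.0% as higher and 24.1% as lower. The genes were chosen with this contrast known, and nothing is read from their count.

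Other genes of ion and solute transport were taken by family name, whatever their counts. The table has 764 rows of aquaporins, ion channels, ion pumps and solute carriers, of which 20 lie within the limits on position. Besides the 6 channel genes, 13 had agreeing positions, and *Gja10*, a gap junction gene, had an unclear one. Of the 13, 8 held 0 to 6 counts over the 6 libraries, namely *Slc26a7*, *Slc7a13*, *Slc13a1*, *Cngb3*, *Gabrr1*, *Gabrr2*, *Gria4* and *Atp6v0d2*. The remaining 5 passed the filter, and 3 of these differed between the lines, 2 higher and 1 lower in UN-SCC680, beside the 64.1% called among all tested genes at agreeing positions. The lower one, *Slc25a13*, passed the filter through UN-SCC679 alone, so its call is no test of it. The median log2 fold change of the 5 was -0.02, against 0.18 over the 195 tested genes at agreeing positions and -0.0028 over all rows.

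*Slc44a1*, which codes for a choline transporter, rose the most. It had 1774, 2039 and 1682 counts in the UN-SCC679 libraries and 5112, 5547 and 5481 in those of UN-SCC680, with no overlap. Its normalized CPM went from 468 ± 6.84 to 1259 ± 42.2 (mean ± SD of 3 libraries), or 1.43 on the log2 scale with a standard error of 0.04 (edgeR adjusted p = 1.69e-33). It lies within 2 Mb of *Tmem38b*. *Slc35a1*, the carrier that brings CMP-sialic acid into the Golgi, was also higher in UN-SCC680. Its 1336 to 1605 counts per library became 1929 to 2074, and its normalized CPM rose from 365 ± 5.94 to 469 ± 13.4 (mean ± SD of 3 libraries), or by 0.36 on the log2 scale with a standard error of 0.04 (edgeR adjusted p = 1.22e-10).

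*Slc25a13*, which codes for the mitochondrial aspartate and glutamate carrier citrin, was nearly absent from UN-SCC680. It had 1115, 1294 and 1082 counts in the libraries of UN-SCC679 and 2, 2 and 3 in those of UN-SCC680. It passed the filter on low counts through UN-SCC679 alone, so its call as lower is no test of it. The ratio of the summed counts relative to the summed library totals, UN-SCC679 over UN-SCC680, was 555. Its exact 95% interval for counting error was 269 to 1381. Like *Cftr*, it lies on chromosome 6.

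*Atp6v1f* and *Grin3a* did not pass the threshold. *Atp6v1f*, a subunit of the proton pump of lysosomes and other acidic compartments, stood at 204 ± 7.03 normalized CPM in UN-SCC679 against 202 ± 4.16 for UN-SCC680 (mean ± SD of 3 libraries). The log2 difference was -0.02 with a standard error of 0.05 (edgeR adjusted p = 0.789), and its sign turned under some alternatives. *Grin3a*, an NMDA-type glutamate receptor subunit, had 10 to 21 counts per UN-SCC679 library and 9 to 12 per UN-SCC680 library. Its log2 fold change was -0.70 with a standard error of 0.34 (adjusted p = 0.0695 from edgeR), so a difference of this size was not resolved at this depth.

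The genes next to the channel genes were read in the same way, taking the nearest gene on each side with an agreeing position and at least 30 counts over the 6 libraries. There were 8 such genes, and 5 differed between the lines, 2 of them higher and 3 lower in UN-SCC680, again beside 64.1%. The neighbor of *Cftr* on its upper side shared its pattern. *Cttnbp2*, which codes for a cortactin-binding protein and begins 43.7 kb beyond *Cftr*, had 38, 44 and 38 counts in the UN-SCC679 libraries. It had 0, 0 and 0 in those of UN-SCC680, at least 14.6-fold lower by the same floor. Like *Cftr*, it passed the filter on low counts through UN-SCC679 alone, so its call among the 3 lower is no test of it. On the lower side the nearest such gene was *St7*, 228 kb away, which was present in both lines at 168 ± 5.21 and 137 ± 3.69 normalized CPM (SD, n = 3 each). Its log2 fold change was -0.30 (adjusted p = 9.19e-06 from edgeR). The call of *St7* was lost by DESeq2 (adjusted p = 0.000188) and without UN-SCC679 replicate 2 (0.00042) or without UN-SCC680 replicate 1, 2 or 3 (5.45e-05, 0.000153 and 0.000295 in edgeR).

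Beyond *Cttnbp2*, the next gene at an agreeing position with 30 counts was *Ing3*, a chromatin reader gene that lies 220 kb above *Kcnd2*. It had 115 ± 7.08 normalized CPM in UN-SCC679 against 118 ± 5.53 for UN-SCC680 (mean ± SD of 3 libraries, log2 difference 0.03, edgeR adjusted p = 0.727). *Kcnd2*, at 0 in both lines, thus lies between *Ing3*, read in both, and *Cttnbp2*, read in UN-SCC679 alone and 2701 kb away. Within 2 Mb of the start of *Cftr*, 9 other genes at agreeing positions were tested, of which 1 was higher and 6 were lower in UN-SCC680, with a median log2 fold change of -0.34, beside 40.0% higher and 24.1% lower among all tested genes at agreeing positions. *Cttnbp2* is among the 6 lower and passed the filter through UN-SCC679 alone. All of the 9 but *Cttnbp2* lie on the lower side. Neighboring genes are not independent of each other. The study also sequenced the exomes of both lines, and their copy number was not analysed here.

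The neighbors of the aquaporin pair were both higher in UN-SCC680. *Nfx1* was higher by 0.50 on the log2 scale (edgeR adjusted p = 1.15e-17) and *Nol6* by 0.31 (edgeR adjusted p = 8.90e-10), the latter lost with the scaling set on agreeing positions (log2 fold change 0.15, adjusted p = 0.00081). *Tmem38b* lies between *Fsd1l*, whose log2 difference of 0.30 did not pass the threshold (edgeR adjusted p = 0.000918), and *Gm12479*, with 12 to 19 counts per library and an adjusted p of 0.881 from edgeR. Within 2 Mb of *Tmem38b*, 5 of 10 other genes were higher in UN-SCC680 and 0 were lower at this threshold, with a median log2 fold change of 0.34, beside the same 40.0% and 24.1%. The counts within 2 Mb of *Tmem38b* and of *Cftr* come from the main scaling only. They were not followed with the scaling set on agreeing positions, which moved the median of all rows by -0.16. Below *Trpc6* lies *Yap1*, the Hippo pathway coactivator, at 1791 ± 6.29 and 1035 ± 22.8 normalized CPM in UN-SCC679 and UN-SCC680 (SD, n = 3 each, log2 fold change -0.79, adjusted p = 6.25e-26 from edgeR), and no such gene followed within the limit.

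**Figure D3:**
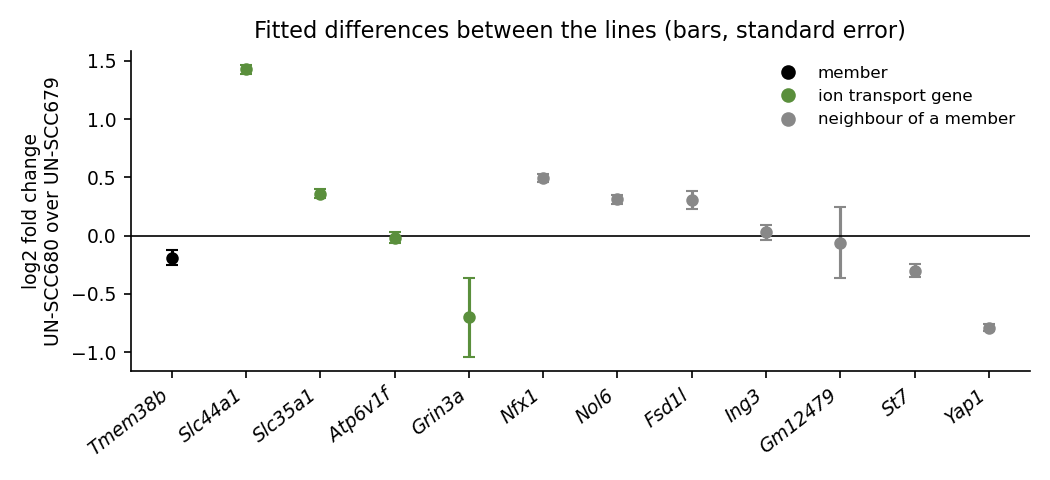
Fitted log2 fold change of UN-SCC680 over UN-SCC679, with its standard error as bars, for *Tmem38b* (black), 4 ion transport genes (green) and 7 neighbors of the channel genes (grey), with *Slc25a13* (7 counts in UN-SCC680) and the neighbor *Cttnbp2* (0 counts there) left out. Of the genes drawn, *Slc44a1* stands highest at 1.43 and *Yap1* lowest at -0.79, with *Tmem38b* at -0.19.

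**Figure D4:**
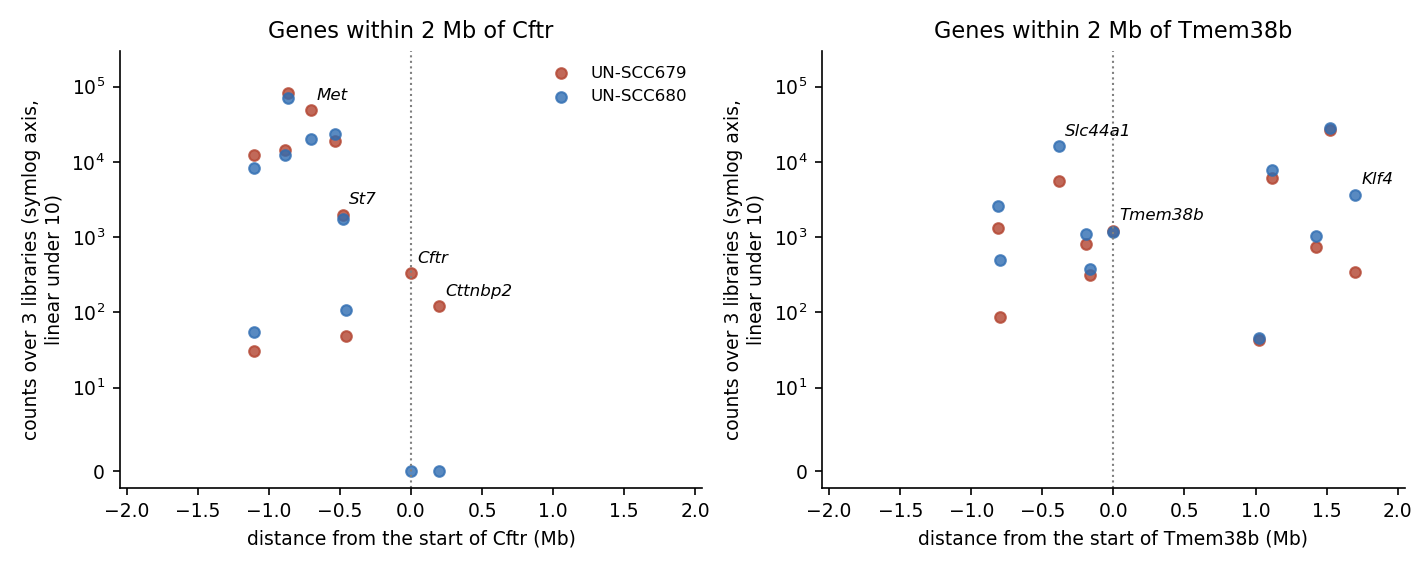
Counts summed over 3 libraries of UN-SCC679 (red) and of UN-SCC680 (blue), on an axis that is linear under 10 and logarithmic above, against distance from the start of *Cftr* (left) and *Tmem38b* (right) in Mb, for tested genes at agreeing positions. *Cftr* (333 against 0 counts) and *Cttnbp2* (120 against 0) stand alone at 0 in UN-SCC680, while the genes around *Tmem38b* are present in both lines.

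A count of 0 across UN-SCC680 was rare among genes seen in UN-SCC679. Of the 203 genes at agreeing positions with at least 30 counts, 7 had 0 in all 3 UN-SCC680 libraries, *Cftr* among them, and 0 had none in all 3 UN-SCC679 libraries. The 7 reached 30 counts through UN-SCC679 alone, and the share of such rows over the whole table was not counted. *Decr1* lies on chromosome 4. *Casd1*, *Sgce*, *Peg10*, *Cftr*, *Cttnbp2* and *Cadps2* lie on chromosome 6, between 4600839 and 23839420. *Slc25a13*, nearly absent from UN-SCC680, lies in that stretch too, while *St7* and *Ing3* there were read in both lines. How many of the 203 genes lie on chromosome 6 was not counted, so nothing is read from this placing. Whether the place of these genes has a part in their counts was not tested. The profiles most like that of *Cftr* were those of *Peg10*, a retrotransposon-derived imprinted gene, and *Cadps2*, a gene of dense-core vesicle release. Likeness was the Euclidean distance between mean-centered log2 CPM over the 6 libraries, which mostly follows the difference between the lines, and it was 0.502 and 1.40 against a median of 7.39 over 202 genes. *Peg10* had 98, 113 and 71 counts and *Cadps2* 42, 52 and 58 in UN-SCC679, and both had 0 in every UN-SCC680 library. By the same floor as for *Cftr* they were at least 34.1-fold and 18.6-fold lower there. For *Tmem38b* the nearest profiles were those of *Stx17*, an autophagosome SNARE, and *Tmem106b*, a lysosomal membrane protein gene, both at a distance of 0.141 against a median of 0.769.

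The label of squamous carcinoma could not be checked on these rows, since 0 of 11 squamous and basal markers had an agreeing position, nor did any of the club cell, ciliated, alveolar, endothelial or leukocyte markers. Of 7 ionocyte markers 2 did, *Cftr* and *Atp6v0d2*, and the latter had 1 count in all. Of 7 general epithelial markers 1 did, *Esrp1*, a splicing factor of epithelial cells, with 3 counts in UN-SCC679 against 0 for UN-SCC680. Of 8 fibroblast markers 1 did, *Col1a2*, with 99141 to 125364 counts in the libraries of UN-SCC679 and 9290 to 9976 in those of UN-SCC680, so it was higher in the line that had *Cftr*. Its part in the difference in *Cftr* was not tested. Of 34 genes listed for airway ion and water transport, 4 had agreeing positions, and they were *Cftr*, *Aqp3*, *Aqp7* and *Trpc6*.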

How the data were processed

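The authors' file gives raw counts by Ensembl gene with no scaling, beside exon positions and exonic length. The submitters' processing notes name featureCounts and mm10, and the paper's methods name Trimmomatic, Kallisto and DESeq2. The library kit keeps strand, but the strand setting of the counting and the annotation release are not given in the sources used here, so reads of overlapping genes on opposite strands cannot be told apart. Columns were matched to libraries by line and replicate number, and 0 columns of values were left unused. Symbols were found for 31021 of 55359 rows.

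UN-SCC680 was compared with UN-SCC679 on the whole table with edgeR's quasi-likelihood test (filterByExpr, TMM, no covariates, Benjamini-Hochberg adjustment, threshold 5e-05). The standard error was derived from the F statistic. The fit was checked on simulated counts of 8774 rows drawn with a common spread, 191 of them changed. It called 163 of the changed rows and 0 of the unchanged. Far fewer rows were changed there than were called in the data. Libraries of a line differed by more than sampling noise (chi-square per row 1.11 to 1.63), and each counted as 1 sample. The common biological coefficient of variation was 3.12%, and TMM factors lay between 0.986 and 1.01.

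The members, gene families and marker lists were chosen with earlier results of these data known. The genes named were the 6 members, family genes and nearest neighbors with at least 30 counts, overlapping rows, the 2 most similar genes for each of *Cftr* and *Tmem38b*, and markers, all at agreeing positions. *Gja10*, the 3 genes beyond the limits and the family genes under 30 counts are named besides. Alternatives were DESeq2, limma-voom, other scalings, filters and thresholds, a replicate block and leaving out each library. The fits ran in R 4.3.3 with edgeR 4.0.16, DESeq2 1.42.0 and limma 3.58.1. Tables and plots came from Python 3.11.15 with matplotlib 3.10.9, NumPy 2.4.6, the library pandas 2.3.3, and SciPy 1.17.1.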

Additional observations from a re-analysis of the deposited data

How the results depend on the processing

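The 3 called ion transport genes stayed at 3 under all alternatives but 2, which each gave 2, namely at least 10 counts in every library (3 genes tested) and an absolute log2 fold change over 1. The restriction of both ends to agreeing positions left 0 tested family genes and gave no value. The 5 called neighbors became 1 when the fold had to pass 1 on the log2 scale, and 4 to 6 under the other alternatives. Over all rows the 2736 calls became 5248 at an adjusted p-value under 0.05 and 1024 with that limit on the fold. The replicate block gave 2528 rows, 3 family genes and 5 neighbors. Same-numbered libraries of the lines deviated from their means with correlations of -0.0382, -0.00052 and -0.0218, so no shared deviation was seen. The labels do not say whether they were prepared together. Scaling on agreeing positions moved the share of calls higher in UN-SCC680 from 50.1% to 32.5%.

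Among the values of named genes other than *Cftr* and *Tmem38b* under alternatives, 236 kept direction and side of the threshold, 6 lost the call (5 of *St7*, 1 of *Nol6*), 2 gained it (*Stx17*, with library size alone and with scaling on agreeing positions) and 6 changed sign, all 6 being of genes that did not pass the threshold. For *Cftr* and *Tmem38b* calls were not followed, and 27 of their values moved by less than the replicate SD and 6 by more. *Atp6v1f* turned to 0.016 with no low-count filter, 0.013 without UN-SCC679 replicate 2 and 0.00063 without UN-SCC680 replicate 1, in a leave-one-out range of -0.0334 to 0.013. *Ing3* turned to -0.13 with scaling on agreeing positions and to -0.015 without UN-SCC679 replicate 3 (leave-one-out range -0.015 to 0.0751), and *Gm12479* to 0.098 without UN-SCC679 replicate 2 (range -0.14 to 0.098). The fitted log2 fold change of *Cftr* ran from -9.95 to -4.59, the latter with a prior count of 5, and its bound of 40.3-fold became 39.7 with TMM library sizes, 38.5 to 42.3 with a library left out and 123 with the 3 counts taken over all 3 libraries, the last and the TMM bound chosen after seeing the data, as was leaving out mitochondrial rows (2738 calls).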
